A study of Mus musculus with 13 samples.

Results

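AMP-activated protein kinase (AMPK) is the energy sensor of the cell, and its subunit genes were followed in the left ventricle (LV) of mice with cardiac LXRα overexpression and pressure overload. The members were the 6 genes Prkaa1, Prkaa2, Prkab1, Prkab2, Prkag1 and Prkag2, taken by gene symbol in the annotation of the array. Of these 6, 5 were measured, by 6 probes, among 16593 genes that have a probe. Prkaa1, which encodes the α1 catalytic subunit, carries no probe under its symbol or Entrez number in the annotation used here and was not analysed here. All 5 measured genes passed the filter on dim probes and were tested together with the rest of 7837 genes.

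Each array was hybridised with LV RNA, labelled as from male C57BL/6 mice of 4 months, 5 weeks after transverse aortic constriction (TAC), which narrows the aorta and loads the LV with pressure, or after a sham operation. LXRα-Tg mice carry murine LXRα (Nr1h3), a nuclear receptor for oxysterols, under the αMHC promoter, which is active in cardiomyocytes, and Wt animals are their littermates. There were 3 arrays labelled LXRα-Tg TAC, 3 labelled LXRα-Tg sham, 4 labelled Wt TAC and 3 labelled Wt sham, on 2 BeadChip slides that each held all 4 groups. Slide 1 held replicate 1 of LXRα-Tg TAC and of LXRα-Tg sham, and replicates 1 and 2 of Wt TAC and of Wt sham. Slide 2 held the rest, with Wt sham replicate 3 as its only Wt sham array. Values from a slide alone therefore rest on few arrays per group, and for some groups on a single array. Nothing in the labels ties each array to a mouse of its own. The p-values therefore measure only array-to-array spread, which may be technical.

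AMPK is a complex of a catalytic α subunit, a scaffolding β subunit and a regulatory γ subunit. The γ subunit binds AMP, ADP and ATP, the β subunit binds glycogen and holds the complex together, and the α subunit is the kinase, switched on when LKB1 or CaMKK2 phosphorylates its activation loop. In the heart, the α2 form is the main catalytic subunit, and active AMPK favours glucose uptake, glycolysis and fatty acid oxidation and restrains protein and lipid synthesis. In humans, mutations of the γ2 gene cause a cardiomyopathy with glycogen storage and ventricular pre-excitation. The kinase is regulated mainly through phosphorylation and nucleotide binding, which transcript arrays do not measure.

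Several arrays carried signals at odds with their labels. The Nr1h3 probe read 25186.7 to 31975.4 on 5 arrays and 163.2 to 396.7 on 8, and on 5 arrays this went against the labelled genotype (LXRα-Tg TAC replicate 3, LXRα-Tg sham replicates 1 and 2, Wt TAC replicate 2 and Wt sham replicate 3). Eif2s3y, a Y-linked gene, was not detected on 2 arrays (LXRα-Tg TAC replicate 3 and Wt sham replicate 1), although all mice were labelled male. Groups below are those of the labels, and values without these arrays are given for part of the results. Leaving out the 5 arrays keeps 1 LXRα-Tg sham array, which is then assumed to vary like the other groups. Cardiomyocyte markers were detected on every array, 9 or 10 of 10 tested. Markers of liver were summed at 1713 to 6355.3 on arrays labelled LXRα-Tg TAC, 713.45 to 2486.5 on LXRα-Tg sham, 695.08 to 3197.7 on Wt TAC and 1368.3 to 8725.8 on Wt sham. Between 9454 and 10392 of 25697 probes were detected per array, at a detection p under 0.01.

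Prkaa2 and Prkab2 gave the smallest p-values among the members, and the 250 bases upstream of the annotated start of each gene are shown for that reason (RefSeq, build GRCm38.p6). The Prkaa2 stretch is chr4:105109899-105110148 on the minus strand, and the Prkab2 stretch is chr3:97657962-97658211 on the plus strand. Capitals mark GC boxes, GGGCGG or its reverse complement, the motif of Sp1-type factors.
Prkaa2: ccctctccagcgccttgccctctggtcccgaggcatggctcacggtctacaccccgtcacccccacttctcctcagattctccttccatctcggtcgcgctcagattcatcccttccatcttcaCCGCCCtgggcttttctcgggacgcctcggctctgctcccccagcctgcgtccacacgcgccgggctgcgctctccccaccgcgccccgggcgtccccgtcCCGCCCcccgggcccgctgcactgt
Prkab2: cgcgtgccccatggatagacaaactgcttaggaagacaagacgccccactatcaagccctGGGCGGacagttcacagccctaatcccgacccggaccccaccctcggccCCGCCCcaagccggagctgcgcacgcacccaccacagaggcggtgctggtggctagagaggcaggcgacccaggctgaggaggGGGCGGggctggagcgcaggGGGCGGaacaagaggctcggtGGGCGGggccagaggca
The windows searched ran from 250 bases before to 50 bases after each start, and all 6 genes matched the table with 8 such windows, of which Prkag2 has 3. A GC box on either strand was found 5 times in the Prkab2 window and 2 times in the Prkaa2 window, 5 times in that of Prkaa1, 2 times in that of Prkag1, 2, 0 and 1 times in the 3 of Prkag2, and not in that of Prkab1. Of all 32851 windows in the table, 35.7% hold at least 1 GC box. The core motif bound by nuclear receptors, AGGTCA, occurred once among the 8, in the second Prkag2 window, and 16.3% of all windows hold it. No member window held the E-box CACGTG (7.15% of all windows) or the TATA box TATAAA (13.6%), and the CCAAT box (37.4%) was found in those of Prkag1 and in 2 of Prkag2. GC boxes in the Prkaa1 window overlap each other, and the Prkaa2 and Prkab2 windows held none of the other motifs searched. GC content was 72.7% for Prkaa2 and 68% for Prkab2, against a median of 52.7% over all windows. It was 82% for Prkaa1, 65.3% for Prkab1, 54.7% for Prkag1 and 69.7%, 50.3% and 79.3% for the 3 windows of Prkag2. High GC content was thus not particular to Prkaa2 and Prkab2. A match is a run of letters only.

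Prkaa2, the gene for the α2 catalytic subunit, was highest on arrays labelled Wt TAC. Its brighter probe, which was used in the test, read a background-subtracted signal of 160.2, 81.5 and 171 on the arrays labelled LXRα-Tg TAC. On those labelled LXRα-Tg sham it read 186.2, 131.2 and 131.4. Wt TAC arrays read 416.8, 310.3, 342 and 144.4, and Wt sham arrays read 142.1, 153.2 and 103.2. Thus 3 of the 4 Wt TAC arrays lay above all of the other 9 arrays, while Wt TAC replicate 4 lay among them. After normalization, the mean log2 level was 7.39 ± 0.38 for LXRα-Tg TAC, 7.22 ± 0.35 for LXRα-Tg sham, 8.12 ± 0.64 for Wt TAC and 7.36 ± 0.25 for Wt sham (SD, n = 3, 3, 4 and 3). In this order, Wt TAC stood first and the other 3 groups were within 1 SD of each other.

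**Figure D1:**
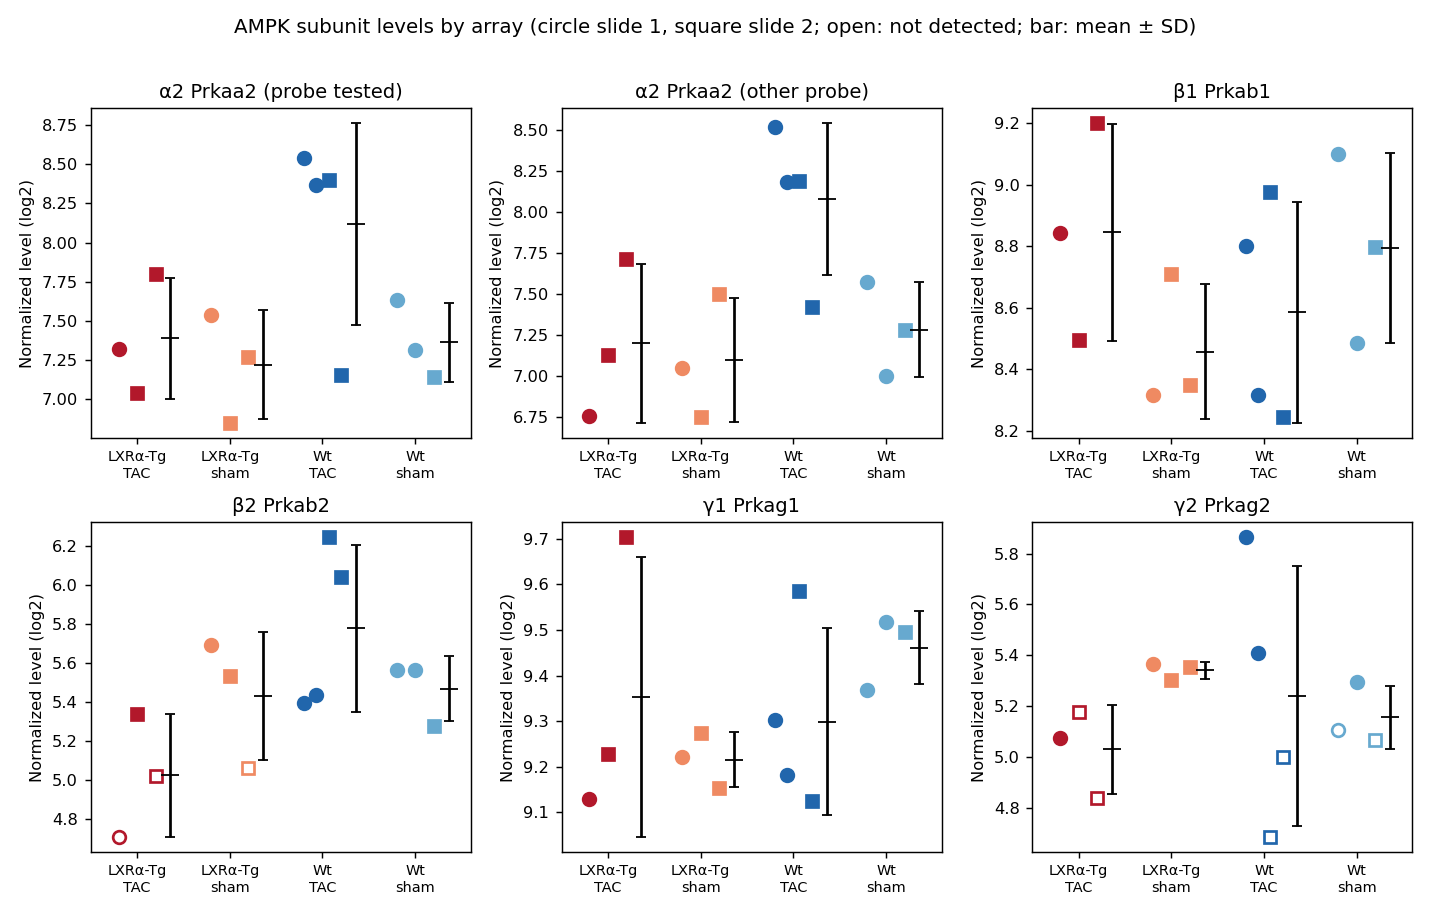
Normalized level (log2) of each AMPK subunit probe by array, in the groups of the labels from LXRα-Tg TAC to Wt sham. Points are arrays (circle slide 1, square slide 2, open where the probe was not detected), bars are the group mean ± SD, and 3 of 4 Wt TAC arrays lie apart from the rest for Prkaa2.

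The comparison of Wt TAC with Wt sham asks, by the labels, what pressure overload alone did to the subunits. Nr1h3 was high on an array of each group, at 31926.6 on Wt TAC and 27568.2 on Wt sham. On the log2 scale Prkaa2 differed by 0.75 ± 0.31 (SE), a fold of 1.69, with a 95% confidence interval of 0.086 to 1.42. The unadjusted p was 0.0299 and the adjusted p 0.662 (limma, Benjamini-Hochberg over 7837 genes), so the gene was not called at an adjusted p under 0.05. None of the 5 members was called, and the share of all genes called was 0%. At an unadjusted p under 0.05, 1 of 5 members passed, against 6.88% of all genes, and Prkaa2 ranked 354 of 7837. The α2 difference was 0.98 on slide 1 and 0.64 on slide 2, 1.07 without Wt TAC replicate 4 (adjusted p 0.249) and 0.56 without the 5 arrays on which Nr1h3 went against the label (adjusted p 0.668). Without the 2 arrays lacking Eif2s3y it was 0.89 (adjusted p 0.946). In whole LV tissue, fewer cells of a type and less RNA per cell cannot be told apart.

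A second Prkaa2 probe was also highest on Wt TAC arrays, while the order of the other groups differed between the probes. It read 105, 87.6 and 161 on LXRα-Tg TAC arrays and 130.8, 120.9 and 155.9 on LXRα-Tg sham arrays. Wt TAC arrays read 410.3, 271.7, 292.4 and 178.5, against 135.6, 118.9 and 116.2 on Wt sham arrays. By this probe every Wt TAC array read above every other array, the lowest again being replicate 4. That separation was one of raw signals: after normalization Wt TAC replicate 4 (7.42) fell below Wt sham replicate 1 (7.57). Tested over 10422 probes, the difference between Wt TAC and Wt sham was 0.80 ± 0.28 (unadjusted p 0.0145, adjusted p 0.616, limma). Both probes correlated with r = 0.896 over the 13 arrays, which share labels, slides and scaling.

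**Figure D2:**
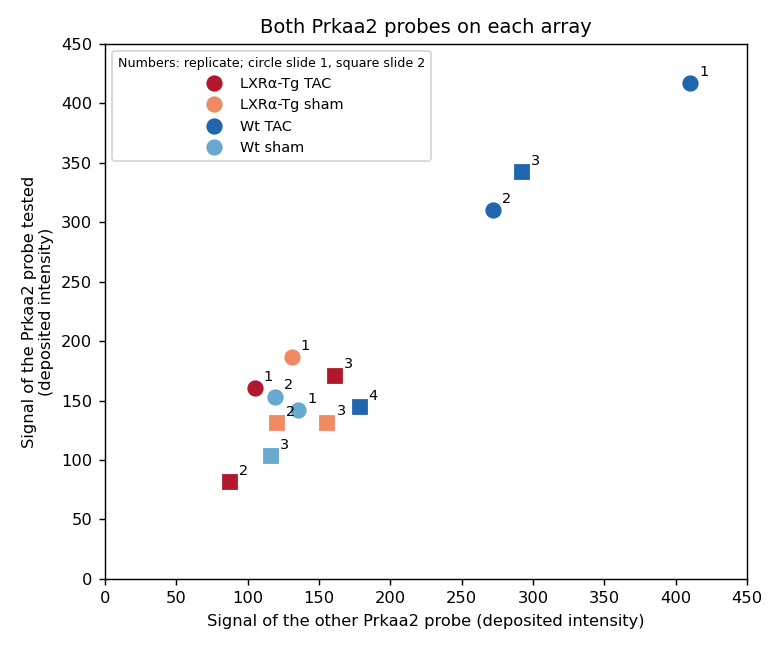
Deposited signal intensity of both Prkaa2 probes on each of the 13 arrays, coloured by labelled group and numbered by replicate (circle slide 1, square slide 2). Wt TAC replicates 1, 2 and 3 read 271.7 or more on both probes, and Wt TAC replicate 4 lies near the other groups.

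Markers of other cells differed between the same arrays. Atrial cardiomyocyte markers, 6 of 7 tested, were summed at 9249.1 to 30500 on Wt TAC arrays and 7856.2 to 11394 on Wt sham arrays, with 6 of 6 above 0 in this comparison and a median log2 fold change of 1.44. Liver markers, 7 of 10 tested, were below 0 in 7 of 7, with a median of -1.17. Wt TAC replicate 4, the array low in Prkaa2, had the highest liver marker sum of its group (3197.7). Without Wt sham replicate 3, which had the highest liver marker sum of all arrays (8725.8), the Prkaa2 difference was 0.64. The part of these other cells in the Prkaa2 values was not tested.

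Setting LXRα-Tg TAC against Wt TAC asks, by the labels, whether overexpression of LXRα altered the subunits in loaded hearts. Nr1h3 went against the label in both groups, at 290.4 on an LXRα-Tg TAC array and 31926.6 on a Wt TAC array. Prkaa2 was lower by the brighter probe, with a log2 fold change of -0.73 ± 0.31 (SE), a 95% confidence interval of -1.40 to -0.060 and an unadjusted p of 0.0349 (adjusted p 0.988, limma). By the second probe it was -0.88 ± 0.28, with an unadjusted p of 0.00819 and an adjusted p of 0.982. Within slides the brighter probe gave -1.13 on slide 1 and -0.35 on slide 2. It gave -1.05 without Wt TAC replicate 4 and -0.85 without the 5 arrays at odds with their label. Since the 4 Wt TAC arrays also serve the comparison with Wt sham, both differences rest on the same high values. Liver markers were above 0 in 7 of 7 here, with a median of 1.17, and kidney markers in 5 of 6, with a median of 0.35, and their part was not tested.

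Prkab2, the gene for the β2 scaffold, was dim on these arrays. Its signal was 11, 17.3 and 13.3 on arrays labelled LXRα-Tg TAC, where it was detected on 1 of 3. LXRα-Tg sham arrays read 43.3, 40 and 16.1, with detection on 2 of 3. It was detected on all arrays labelled Wt TAC, at 27.6, 27.8, 61.3 and 55.8, and on all those labelled Wt sham, at 23.6, 33.9 and 19.4. For comparison, the lowest signal of a detected probe was 14.6 to 24.2 by array, so several of these values lie at the limit of detection. No LXRα-Tg TAC array reached the lowest Wt TAC array.

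Mean log2 levels of Prkab2 were 5.02 ± 0.31 for LXRα-Tg TAC, 5.43 ± 0.33 for LXRα-Tg sham, 5.78 ± 0.43 for Wt TAC and 5.47 ± 0.17 for Wt sham (SD). The log2 fold change of LXRα-Tg TAC against Wt TAC was -0.75 ± 0.23 (SE), with a 95% confidence interval of -1.26 to -0.25. Its unadjusted p of 0.00676 ranked 37 of 7837 genes, and the adjusted p was 0.988 (limma). Without overlap, 1 of 5 members was lower and 0 of 5 higher, against 2.96% and 2.19% of all genes. At an unadjusted p under 0.05, 2 of 5 members passed (Prkaa2 and Prkab2), against 4.72% of all genes, and 0% of all genes were called after adjustment. The Prkab2 value was -0.71 on slide 1, -0.96 on slide 2 and -0.87 without the 5 arrays at odds with their label. The offset of 16 compresses levels of a gene at the detection limit. With Prkab2 detected on only 1 of 3 LXRα-Tg TAC arrays, the size of this difference is not known.

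Between Wt TAC and Wt sham, Prkab2 differed by 0.31 ± 0.23 (adjusted p 0.830), but the value was -0.15 on slide 1 and 0.87 on slide 2. Wt TAC replicates 3 and 4, both on slide 2, read higher than any other array, and replicates 1 and 2, on slide 1, lay within the Wt sham range. In LXRα-Tg hearts, TAC against sham gave -0.41 ± 0.25 (adjusted p 0.749). That value was -0.98 on slide 1, where both groups have a single array and Prkab2 was not detected on the LXRα-Tg TAC array. It was -0.12 on slide 2, and -0.039 without the 5 arrays at odds with their label. Between the sham groups, LXRα-Tg against Wt, Prkab2 gave -0.038 ± 0.25, with an interval of -0.58 to 0.50, and -0.50 (adjusted p 0.574) without the same 5 arrays.

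Prkab1, the gene for the β1 scaffold, was detected on all 13 arrays. It read 485.7, 240.9 and 481.9 on LXRα-Tg TAC arrays, 320.6, 523.6 and 292.8 on LXRα-Tg sham arrays, 504.4, 298.4, 524.4 and 334.5 on Wt TAC arrays, and 420.7, 370 and 355.4 on Wt sham arrays. The groups overlapped throughout. After normalization the order was LXRα-Tg TAC (8.85 ± 0.35), Wt sham (8.79 ± 0.31), Wt TAC (8.58 ± 0.36) and LXRα-Tg sham (8.46 ± 0.22), and no neighbours differed beyond their SD. Of its 5 comparisons, TAC against sham in LXRα-Tg had a log2 fold change of 0.39 ± 0.24, with an interval of -0.13 to 0.91 and an adjusted p of 0.749 (limma). The other values were -0.34 ± 0.24 for LXRα-Tg sham against Wt sham, -0.21 ± 0.22 for Wt TAC against Wt sham and 0.26 ± 0.22 for LXRα-Tg TAC against Wt TAC. Without the 5 arrays at odds with their label, Prkab1 gave 0.32 for TAC against sham in LXRα-Tg, -0.44 between the sham groups, -0.12 for Wt TAC against Wt sham and -0.0049 between the TAC groups.

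Prkag1, the gene for the γ1 nucleotide-binding subunit, was also detected on every array. Signals were 592.5, 415.1 and 685.2 on LXRα-Tg TAC arrays, 595.7, 776.9 and 528.2 on LXRα-Tg sham arrays, 712.3, 549.9, 812.2 and 632.5 on Wt TAC arrays, and 511.2, 778 and 592 on Wt sham arrays. Raw signals overlapped between all groups. Normalized levels were 9.22 ± 0.060 for LXRα-Tg sham and 9.46 ± 0.080 for Wt sham (SD, n = 3 each), and these groups did not overlap. Under TAC they were 9.35 ± 0.31 for LXRα-Tg and 9.30 ± 0.20 for Wt. The log2 fold change between the sham groups was -0.24 ± 0.16 with an adjusted p of 0.524 (limma). In the other comparisons of one group with another, the Prkag1 value lay between -0.16 and 0.14. Without the 5 arrays at odds with their label it was -0.29 between the sham groups.

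Prkag2, the gene for the γ2 subunit, sat at the limit of detection and was detected on 7 of 13 arrays. Arrays labelled LXRα-Tg TAC read 20.9, 14.4 and 10 (detected on 1), and those labelled LXRα-Tg sham read 30.5, 31.2 and 23.4 (detected on 3). Wt TAC arrays read 45.6, 27.1, 8.8 and 17.4 (detected on 2), and Wt sham arrays read 14.5, 25 and 15 (detected on 1). The widest spread was thus among the 4 Wt TAC arrays, with both higher values on slide 1. Normalized levels averaged 5.03 ± 0.17 for LXRα-Tg TAC, 5.34 ± 0.034 for LXRα-Tg sham, 5.24 ± 0.51 for Wt TAC and 5.15 ± 0.12 for Wt sham (SD).

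For Prkag2 the log2 fold change of LXRα-Tg TAC against LXRα-Tg sham was -0.31 ± 0.24 (SE), with an adjusted p of 0.811, and between the sham groups, LXRα-Tg against Wt, the value was 0.19 ± 0.24 (adjusted p 0.761). The normalized groups did not overlap in either comparison. Between the sham groups raw signals did overlap. The highest Wt sham array stood at 5.2945 after normalization and the lowest LXRα-Tg sham array at 5.3016. Prkag2 was detected on 1 of 3 Wt sham arrays and on 1 of 3 LXRα-Tg TAC arrays, so the order of these levels is not reliable. With sham arrays of both genotypes, 1 of 5 members was higher without overlap (Prkag2), against 11% of all genes, and 1 of 5 lower (Prkag1), against 9.4%. For TAC against sham in LXRα-Tg, 0 of 5 were higher and 1 of 5 lower (Prkag2), against 5.75% and 6.33% of all genes. With Wt TAC and Wt sham, 0 of 5 were higher and 0 of 5 lower, against 4.41% and 2.87%. Wt TAC against Wt sham (0.085 ± 0.22) and LXRα-Tg TAC against Wt TAC (-0.21 ± 0.22) had intervals that spanned 0.

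By the labels, LXRα-Tg sham against Wt sham asks what LXRα overexpression did at rest, but Nr1h3 did not separate these groups. The Nr1h3 probe read 163.2, 396.7 and 25186.7 on LXRα-Tg sham arrays and 166.2, 310.2 and 27568.2 on Wt sham arrays. Its mean log2 levels were 10.13 and 10.30, so the values below cannot be read as an effect of LXRα. This is the one comparison in which genes were called: 1.58% of all genes (124), and 16.1% at an unadjusted p under 0.05. None of the 5 subunits was among them, and 0 of 5 had an unadjusted p under 0.05. Prkaa2 gave -0.14 ± 0.33, with an interval of -0.86 to 0.57, so that a change of up to 0.57 upward or 0.86 downward on the log2 scale lay within the error of these arrays. TAC against sham in LXRα-Tg gave 0.17 ± 0.33 for Prkaa2 with an interval of -0.55 to 0.88. There, 0 of 5 members passed at an unadjusted p under 0.05, against 7.04% of all genes, and 0% of all genes were called.

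The difference of the TAC effects, LXRα-Tg minus Wt, asks, by the labels, whether the response to load depended on the transgene. It was -0.59 ± 0.45 for Prkaa2 (adjusted p 0.716), -0.72 ± 0.34 for Prkab2 (0.506) and -0.40 ± 0.32 for Prkag2 (0.735), and 0.60 ± 0.33 for Prkab1 (0.557) and 0.30 ± 0.22 for Prkag1 (0.703), all log2 values from limma. Thus α2, β2 and γ2 were below 0 and β1 and γ1 above, and all 5 intervals included 0. Nr1h3 went against the label in all 4 groups and did not separate the sham groups (mean log2 10.13 on LXRα-Tg sham, 10.30 on Wt sham). The differences therefore cannot be read as a dependence on the transgene. No member had an unadjusted p under 0.05, against 10.2% of all genes, and 0% were called after adjustment. The lowest unadjusted p was 0.0568, for Prkab2. These values moved with single slides and arrays. Prkaa2 gave -1.20 on slide 1 and -0.28 on slide 2, -0.91 without Wt TAC replicate 4 and -0.93 without the 2 arrays lacking Eif2s3y. Prkag2 gave -0.73 on slide 1, -0.098 on slide 2 and -0.19 without Wt TAC replicate 1. Prkag1 gave 0.11 on slide 1 and 0.12 without LXRα-Tg TAC replicate 3, and Prkab1 gave 0.27 without the 2 arrays lacking Eif2s3y. Prkab2 gave -0.37 without the 5 arrays at odds with their label. With arrays scaled to their medians, Prkag1 gave -0.13, beside a median of -0.37 over all genes.

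**Figure D3:**
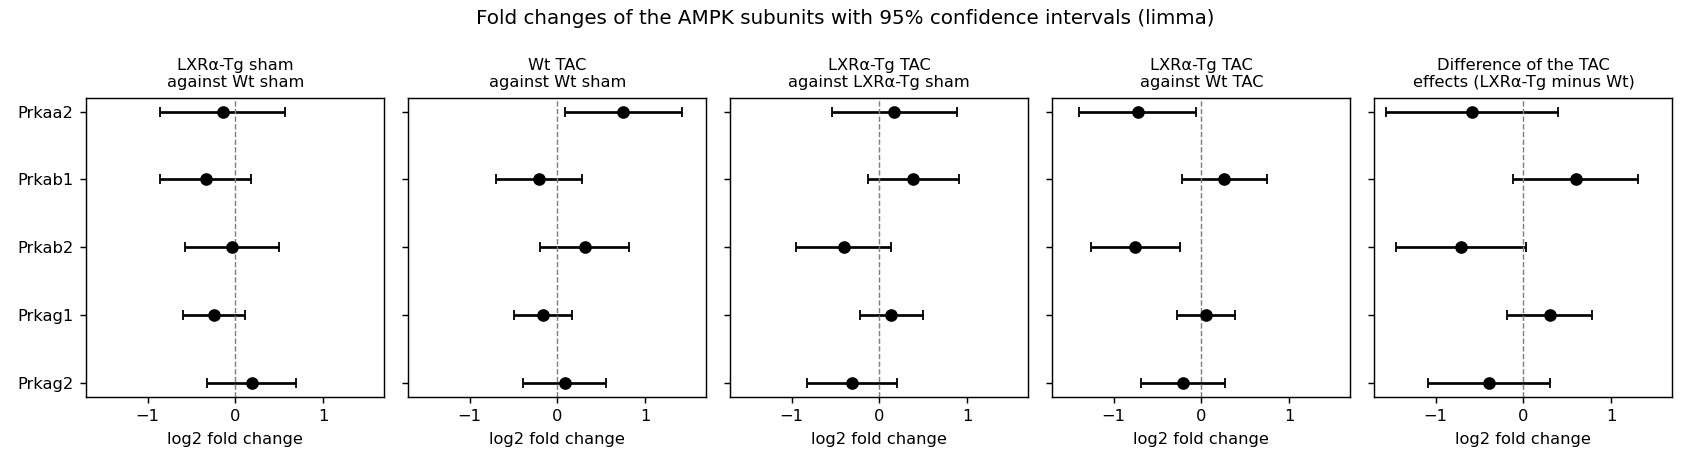
Log2 fold change of the 5 measured AMPK subunit genes in each of the 5 comparisons, with 95% confidence intervals from limma and a dashed line at 0. The intervals exclude 0 only for Prkaa2 in Wt TAC against Wt sham and for Prkaa2 and Prkab2 in LXRα-Tg TAC against Wt TAC, before adjustment for the 7837 genes tested.

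The balance between subunits was followed as the difference of 2 log2 levels on an array, of which only the movement between arrays can be read. Prkab2 minus Prkab1 was -4.13, -3.15 and -4.18 on LXRα-Tg TAC arrays, -2.62, -3.18 and -3.28 on LXRα-Tg sham arrays, -3.41, -2.88, -2.73 and -2.21 on Wt TAC arrays, and -3.54, -2.92 and -3.52 on Wt sham arrays. The 2 lowest values were those of LXRα-Tg TAC replicates 1 and 3, on which Prkab2 was not detected, so these values have no reliable order or size. Prkag2 was likewise not detected on 6 of the 13 arrays. Means were -3.82 ± 0.58 for LXRα-Tg TAC and -2.81 ± 0.49 for Wt TAC (SD), and 1 of 3 LXRα-Tg TAC arrays lay within the Wt TAC range. Prkag2 minus Prkag1 averaged -4.32 ± 0.47 on LXRα-Tg TAC, -3.88 ± 0.087 on LXRα-Tg sham, -4.06 ± 0.63 on Wt TAC and -4.31 ± 0.11 on Wt sham arrays. Against Prkab1, Prkaa2 stood at -1.46 ± 0.063 on LXRα-Tg TAC, -1.24 ± 0.56 on LXRα-Tg sham, -0.47 ± 0.49 on Wt TAC and -1.43 ± 0.25 on Wt sham arrays. On this measure all 4 Wt TAC arrays, replicate 4 included (-1.09), lay above all 3 LXRα-Tg TAC and all 3 Wt sham arrays, and 2 of the 3 LXRα-Tg sham arrays (-0.78 and -1.08) lay above the lowest Wt TAC array. The pair was chosen after the data were seen, and how many gene pairs separate in this way was not computed. Normalized Prkaa2 by itself overlapped between Wt TAC and each of LXRα-Tg TAC and Wt sham. Against Prkag1 the separation was absent: Prkaa2 stood at -1.97 on Wt TAC replicate 4, within the LXRα-Tg TAC range of -2.18 to -1.81.

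Pairs of members differed in how they varied over the arrays. Prkab1 and Prkag1 had the highest correlation of the 10 pairs, r = 0.68 over 13 arrays and 0.62 after the group means were removed. Prkaa2 correlated with Prkab1 at 0.256 and with Prkag1 at 0.256, and at 0.514 and 0.457 after group means were removed. Prkag1 and Prkag2 gave -0.461 (-0.415 within groups), and Prkab2 and Prkag2 gave -0.210 (-0.594 within groups). Prkab2 was detected on 10 and Prkag2 on 7 of the 13 arrays, so the correlations of these genes rest in part on signals at the detection limit. These arrays share 2 slides and 1 normalization, and the values are a description.

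Among all 7836 other genes, those closest to a member over the 13 arrays were the following. For Prkaa2 they were Srsf2, a splicing factor (r = 0.956), and Atp6v0a2, a subunit of the vacuolar proton pump (r = 0.915). Srsf2 had the same 3 highest arrays, with normalized levels of 11.17, 11.20 and 11.16 on Wt TAC replicates 1, 2 and 3 and 10.92 on replicate 4. For Prkab2 they were Sirt5, a mitochondrial desuccinylase (r = 0.821), and Oaz2, an inhibitor of ornithine decarboxylase (r = 0.817). Sirt5 had a lower mean on LXRα-Tg TAC than on Wt TAC arrays, with a log2 fold change of -0.49 ± 0.18 (adjusted p 0.988, limma). Srsf2 and Sirt5 were picked for their likeness over these same arrays, so the patterns they share with the members follow from that choice. Prkab1 had Kmt5c, a histone methyltransferase (0.894), and Med12, of the Mediator complex (0.852). Prkag1 had Rbks, ribokinase (0.897), and Lrrc29 (0.880), and Prkag2 had Tmem189 (0.855) and the mitochondrial ribosomal protein gene Mrpl13 (0.831). Prkag2 was detected on 7 of 13 arrays. Signals of Tmem189 (6.6 to 35.1) and Lrrc29 (8.5 to 30.7) reached below 14.6, the lowest signal of a detected probe on any array. Correlations with these dim probes rest in part on values at the detection limit.

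The genes around AMPK were described by 4 lists. Of 26 upstream kinases and regulators 17 were tested, of 33 substrates and effectors 23, of 13 LKB1-dependent relatives 7, and of 18 adenine nucleotide enzymes 9. In all 5 comparisons 0 genes of any list were called. Acacb, whose product is the classical cardiac AMPK substrate acetyl-CoA carboxylase 2, and Prkag3, for the γ3 subunit, which was listed among the relatives, carry no probe under their symbols here.

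Substrates and effectors were the longest list tested. In the difference of the TAC effects 19 of 23 were above 0, with a median log2 value of 0.33, against -0.0085 over all genes. The median stood 0.24 above that of all genes on slide 1, 0.29 on slide 2 and 0.19 without the 5 arrays at odds with their label. Under median scaling it was -0.045, against -0.37 over all genes. In LXRα-Tg sham against Wt sham the list median was -0.15, with 16 of 23 below 0 and 5 at an unadjusted p under 0.05, all lower, beside 16.1% of all genes at that p in either direction. That median was -0.025, with 11 of 23 above 0, without the 5 arrays at odds with their label, and -0.017, with 11 of 23 above 0 and a median of 0.15 over all genes, under median scaling. The nucleotide enzymes had medians of -0.13 between the sham groups and 0.15 in the difference of the TAC effects. Without the 5 arrays these were -0.34 and 0.34. In the difference the median was 0.040 on slide 1 and 0.0088 on slide 2. Under median scaling it was -0.24, against -0.37 over all genes. With all arrays included, cardiomyocyte markers had a median of -0.28 in LXRα-Tg sham against Wt sham, with 7 of 10 below 0. Their median in the difference of the TAC effects was 0.34. These have the same signs as the substrate and nucleotide enzyme medians from all arrays (-0.15 and -0.13, then 0.33 and 0.15). Marker medians without the 5 arrays are not given here. Atrial markers had the largest shift between the sham groups, with sums of 27547 to 31856 on LXRα-Tg sham and 7856.2 to 11394 on Wt sham arrays. Mean log2 levels of kidney markers were 6.01 on LXRα-Tg sham and 7.03 on Wt sham arrays, and those of liver markers 7.21 on LXRα-Tg sham and 8.07 on Wt sham arrays. The higher Wt sham means came largely from Wt sham replicate 3, at 8.98 for kidney and 9.65 for liver. Wt sham replicates 1 and 2 stood at 6.02 and 6.08 for kidney and at 7.05 and 7.52 for liver. Fibroblast markers had a median of 0.62 and macrophage markers of 0.60 between the sham groups. The part of cell content in these values was not tested.

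Within that list, Mlycd (malonyl-CoA decarboxylase, which removes the brake on fatty acid entry to mitochondria) had normalized levels of 9.27 ± 0.31 on LXRα-Tg TAC, 8.73 ± 0.55 on LXRα-Tg sham, 9.31 ± 0.27 on Wt TAC and 9.64 ± 0.31 on Wt sham arrays (SD). Its log2 fold change was -0.91 ± 0.27 in LXRα-Tg sham against Wt sham (adjusted p 0.113, limma). Hdac4, a class II histone deacetylase that AMPK phosphorylates, gave -0.52 ± 0.16 in the same comparison (adjusted p 0.116). Ppargc1a, the gene for the mitochondrial coactivator PGC-1α, gave -0.56 ± 0.34 there (adjusted p 0.466) and 0.73 ± 0.34 in LXRα-Tg TAC against LXRα-Tg sham (adjusted p 0.695). Without the 5 arrays at odds with their label, the sham comparison gave -0.81 for Mlycd, -0.50 for Hdac4 and 0.020 for Ppargc1a, and Ppargc1a gave 0.25 in LXRα-Tg TAC against LXRα-Tg sham.

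Of the kinases related to AMPK, Nuak1 had the largest value, 0.77 ± 0.24 in LXRα-Tg sham against Wt sham (adjusted p 0.126, limma). Its mean levels were 9.29 ± 0.34 on LXRα-Tg TAC, 9.69 ± 0.19 on LXRα-Tg sham, 9.50 ± 0.42 on Wt TAC and 8.92 ± 0.19 on Wt sham arrays (SD). Without the 5 arrays at odds with their label Nuak1 gave 0.70 (adjusted p 0.445). Sik1 followed with -0.28 ± 0.26, and 0.039 without those arrays. Mark1, the next by size, was detected on none of the 6 LXRα-Tg arrays and on 3 of 7 Wt arrays. Upstream, Map3k7, for the kinase TAK1, gave 0.42 ± 0.23, Sesn1, a stress-induced regulator, -0.42 ± 0.21, and Cab39l, a partner of LKB1, 0.35 ± 0.19. Among nucleotide enzymes the largest were the adenylate kinases Ak4 (-0.44 ± 0.22) and Ak3 (-0.25 ± 0.28) and the AMP deaminase Ampd2 (0.36 ± 0.26). The lowest adjusted p among these was 0.361, for Ak4 (limma). Without the 5 arrays, Map3k7 gave 0.12 and Ak3 -0.65. Map3k7 and Ampd2 were each detected on 1 of 3 Wt sham arrays, so the size of their differences between the sham groups is not known. The list medians of the upstream regulators (-0.0080), the relatives (-0.050) and the nucleotide enzymes (-0.13) stood beside -0.0092 over all genes.

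**Figure D4:**
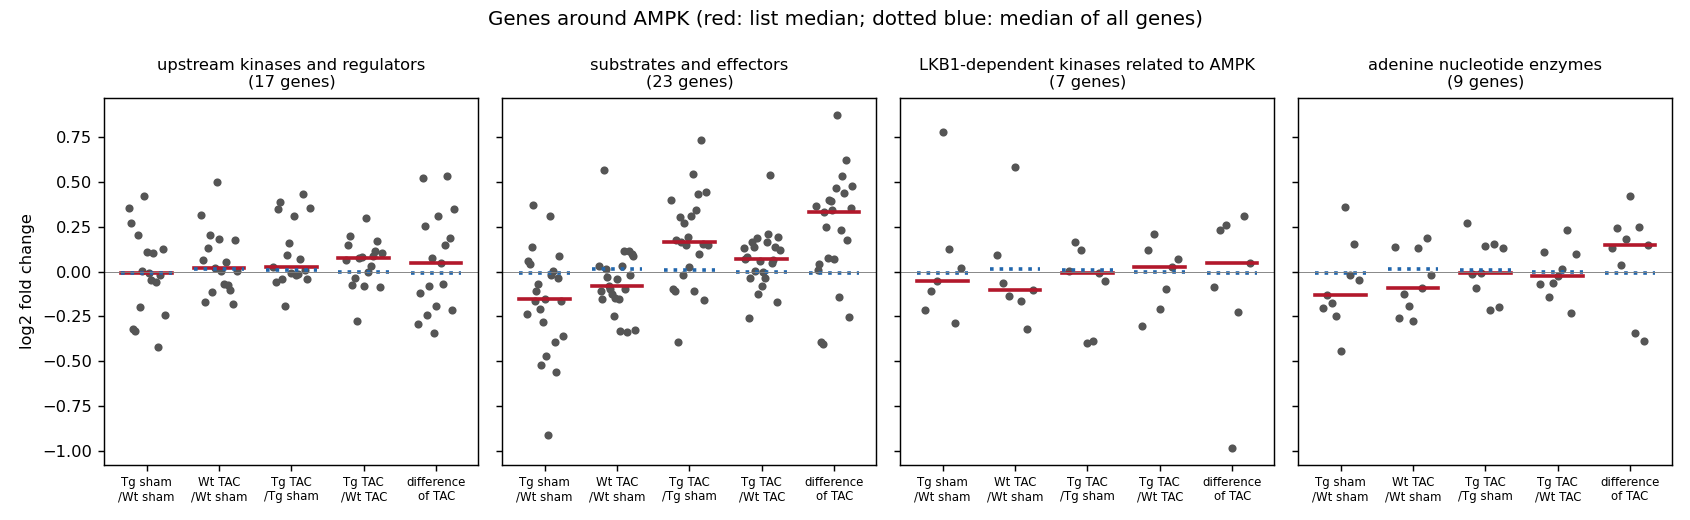
Log2 fold change of each tested gene of 4 lists around AMPK in the 5 comparisons, with the list median in red and the median of all genes as a dotted blue line. The substrate and effector genes have a median of -0.15 in LXRα-Tg sham against Wt sham and of 0.33 in the difference of the TAC effects, and 0 genes were called.

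Both of the lowest p-values were followed through each way of processing, and neither difference changed its direction.

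**Figure D5:**
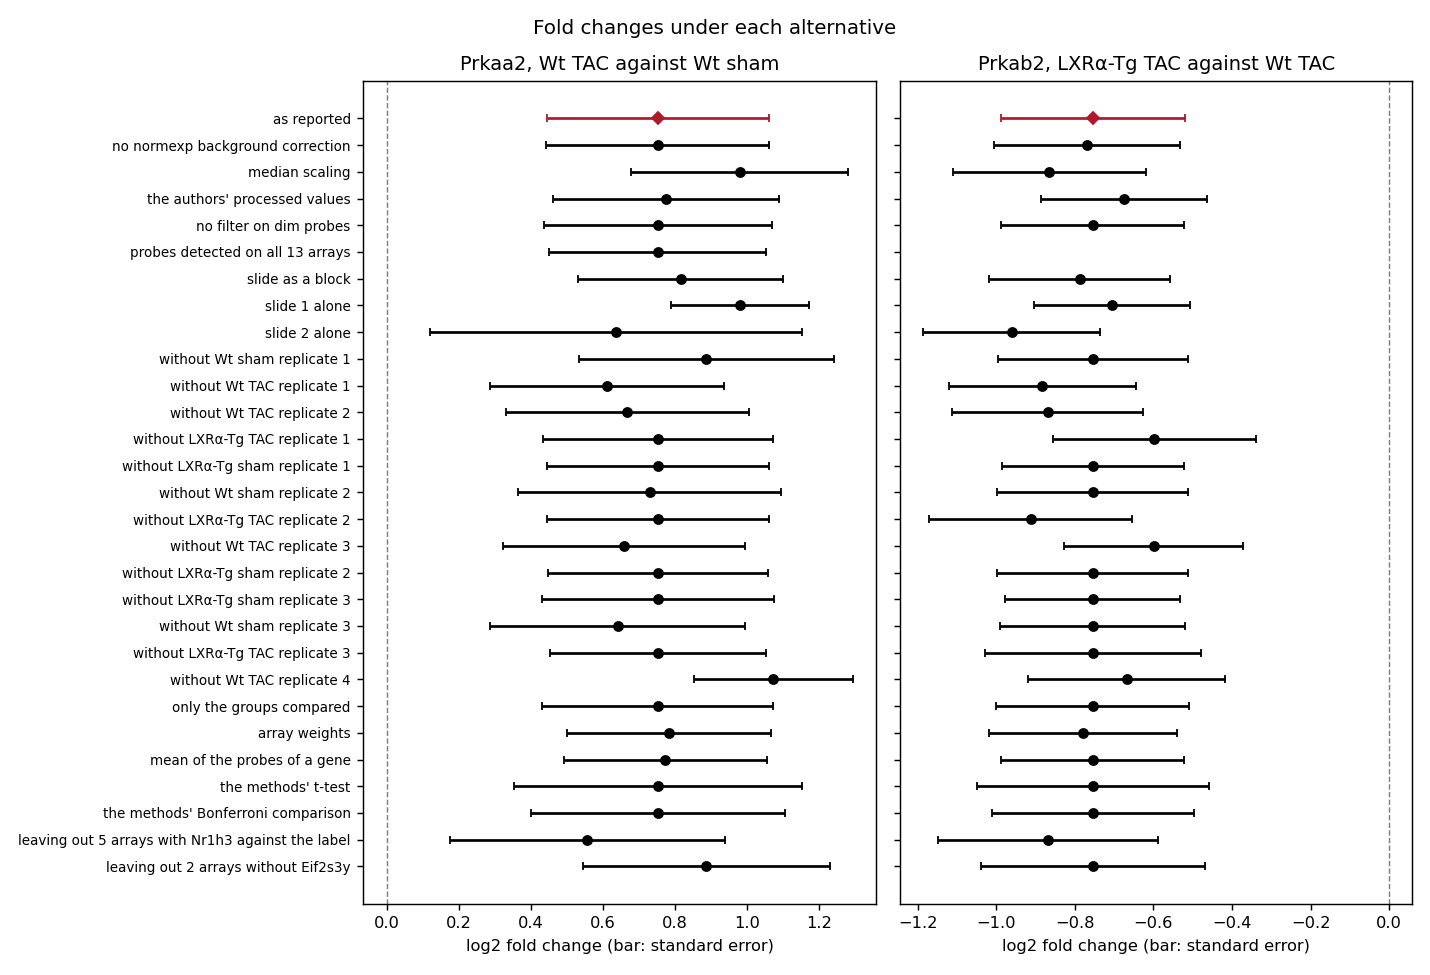
Log2 fold change, with its standard error, of Prkaa2 in Wt TAC against Wt sham and of Prkab2 in LXRα-Tg TAC against Wt TAC, as reported (red) and under each other way of processing. Prkaa2 lay between 0.56 and 1.07 and Prkab2 between -0.96 and -0.60, and the lowest adjusted p was 0.249 for Prkaa2 and 0.440 for Prkab2.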

How the data were processed

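LV RNA was profiled on 13 Illumina mouse BeadChip arrays. The authors deposited a linear signal intensity for each probe, made in GenomeStudio 2011.1 per the submitters' processing notes, background-subtracted and not normalized between arrays, and the detection p-value of each probe. The authors also deposited processed intensities, with one distribution shared by all arrays, which served as an alternative. How they were normalized is not stated.

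The neqc function (limma 3.58.1, R 4.3.3) performed normexp correction with inferred negative controls, added an offset of 16, quantile normalized the arrays and took log2. The offset compresses low signals. Of 25697 probes, 23978 have 1 symbol in the platform annotation and 1719 none. A probe entered if detected (p under 0.01) on 3 or more arrays, which 11028 were, and each of 7837 genes was represented by its brightest probe. One group-means model over 13 arrays (9 residual degrees of freedom) gave 5 comparisons by lmFit and eBayes, adjusted by Benjamini-Hochberg and called under 0.05. The fit was tested on simulated data.

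Replicates were numbered in accession order, and all 4 Wt TAC arrays were used although the series record states fewer. Members and lists were chosen with earlier results of these data known. Genes named are the members, Nr1h3, the 2 genes closest to each member, and, since no list gene was called, the 3 of each list with the largest absolute value in LXRα-Tg sham against Wt sham. Eif2s3y, Acacb and Prkag3 fall outside that rule and were chosen after the data were seen. Prkaa2 was compared with Prkab1 and Prkag1 in place of Prkaa1, which has no probe, also after seeing the data. Alternatives covered background correction, median scaling, the deposited processed intensities, looser and stricter probe filters, slide (blocked, or each by itself), leaving out arrays, fitting only the groups compared, array weights, averaging probes per gene, and the methods' t-test and Bonferroni comparison. Promoter windows were searched in Python 3.11.15.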

Additional observations from a re-analysis of the deposited data

Results flagged for a closer look

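Prkaa2 on the 4 Wt TAC arrays was flagged because 1 array stood apart from the others. Replicate 4 had a normalized log2 level of 7.15, against 8.37 to 8.54 on replicates 1, 2 and 3, and its gap to the nearest array was 0.877 of the whole range, above Dixon's limit of 95% for 4 samples. Chance flags about 1 in 20 groups. By the second Prkaa2 probe the same array was the lowest of its group as well (7.42, against 8.18 to 8.52). Its Nr1h3 signal of 289.7 went with its label.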

How the results depend on the processing

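No member was called in any comparison under any alternative run. Prkaa2 in Wt TAC against Wt sham kept its direction in 28 of 28 alternatives (0.56 to 1.07), Prkaa2 in LXRα-Tg TAC against Wt TAC in 28 of 28 (-1.13 to -0.35) and Prkab2 in LXRα-Tg TAC against Wt TAC in 27 of 27 (-0.96 to -0.60). All values are log2 fold changes, those that turned their sign were small and not called, and the cause was not tested.

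Median scaling, which put the median of all genes at 0.15, 0.19, -0.17, -0.20 and -0.37 in the order of the 5 comparisons, from LXRα-Tg sham against Wt sham to the difference of the TAC effects, gave opposite signs for Prkaa2 0.063 and Prkab2 0.11 in LXRα-Tg sham against Wt sham, Prkab1 0.031 and Prkag1 0.066 in Wt TAC against Wt sham, Prkaa2 -0.043 and Prkag1 -0.067 in LXRα-Tg TAC against LXRα-Tg sham, and Prkab1 -0.0037 and Prkag1 -0.21 in LXRα-Tg TAC against Wt TAC. Prkag1 gave -0.13 in the difference. Slide 1 alone gave 0.064 for Prkaa2 and 0.13 for Prkab2 between the sham groups, -0.15 for Prkab2 between Wt TAC and Wt sham, -0.22 for Prkaa2 and -0.092 for Prkag1 between LXRα-Tg TAC and LXRα-Tg sham, and -0.11 for Prkag1 between the TAC groups. Slide 2 alone gave 0.022 for Prkab2 between the sham groups, -0.22 for Prkag2 between Wt TAC and Wt sham and 0.16 for Prkag2 between the TAC groups. Without the 5 arrays at odds with their label, Prkag2 was -0.017 (Wt TAC against Wt sham), Prkaa2 -0.090 (LXRα-Tg TAC against LXRα-Tg sham), and Prkab1 -0.0049 and Prkag1 -0.16 (LXRα-Tg TAC against Wt TAC). Without the 2 arrays lacking Eif2s3y, Prkab2 was 0.010 between the sham groups, Prkaa2 -0.038 and Prkag1 -0.037 between LXRα-Tg TAC and LXRα-Tg sham, and Prkag1 -0.12 between the TAC groups. Array weights gave -0.011 for Prkag1 between the TAC groups.

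With each array left out in turn, the values that crossed 0 were Prkaa2 (-0.30 to 0.042, above 0 without LXRα-Tg sham replicate 2) and Prkab2 (-0.17 to 0.15) between the sham groups, Prkag2 between Wt TAC and Wt sham (-0.12 to 0.27, below 0 without Wt TAC replicate 1), Prkaa2 (-0.038 to 0.34) and Prkag1 (-0.037 to 0.25) between LXRα-Tg TAC and LXRα-Tg sham, and Prkag1 between the TAC groups (-0.12 to 0.17).

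The 124 genes called between the sham groups became 0 when either Wt sham replicate 1 or replicate 2 of LXRα-Tg sham was left out and 12 when Wt sham replicate 2 was left out. Of the other LXRα-Tg sham arrays, leaving out replicate 3 gave 11 and leaving out replicate 1 gave 48. There were 0 calls without the 2 arrays lacking Eif2s3y, 0 by the methods' t-test and 0 by the methods' Bonferroni comparison. Fitting only the groups compared gave 51, no filter on dim probes 71, median scaling 176 and array weights 475. Prkab2 and Prkag2 have no value among probes detected on all 13 arrays. No paired analysis was possible because the labels carry no replicate numbers. Signal over background limits Prkab2 and Prkag2, and the number of arrays limits all members.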
